A study of Xenopus tropicalis with 12 samples.

Results

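Transcription factor genes of the developmental families were measured in whole embryos of the frog Xenopus tropicalis exposed to naphthenic acids. The families were hox, sox, fox, gata, pax, sine oculis homologue (six3 and six4), nkx, lhx, irx, klf, tbx, dlx, msx, pou, hes and neurod, and a gene belonged to them when its array probe carried a RefSeq transcript of a gene with such a symbol. Of 222 such symbols in the RefSeq gene table of X. tropicalis, 85 had a probe on the array, 1 probe each. For 80 genes the scanner called the probe well above background on 4 or more of the 12 arrays, and these 80 genes are described here, out of 4372 named genes that passed the same filter. They comprised 14 hox, 12 hes, 10 nkx, 9 fox, 7 klf, 5 pax, 5 pou, 5 tbx, 4 sox, 3 lhx genes, the pair six3 and six4, and 1 gene each of dlx, gata, irx and msx, and no neurod gene was among them.

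The embryos were 3 days post fertilization, and RNA of each whole-embryo sample was hybridised in 1 colour (Cy3) to an Agilent array. The S1 group was exposed to naphthenic acid mixture 1, the S2 group to naphthenic acid mixture 2, and the control group to neither, with 4 arrays per group. Naphthenic acids are carboxylic acids from petroleum, and the mixtures were separate batches of 1 commercial product. The labels give no genotype or mutation for any group, and dose and exposure length are not given in the sources used here. The labels do not say whether the samples of a group came from separate clutches, so the p-values measure the spread between these samples.

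Members of these families bind DNA and set the fates of cells in the embryo. Hox genes lie in clusters and specify position along the body axis, with genes at one end of a cluster used in the head and neck and those at the other end in the tail and the distal limb. Many hes genes are repressors switched on by Notch signalling and hold progenitor cells back from differentiation. T-box genes direct heart, limb and mesoderm formation, pax and lhx genes and the sine oculis homologues direct eye, kidney and brain formation, sox genes maintain progenitors, and klf genes control epithelial and metabolic programmes. Most are used in a small fraction of the cells of an embryo, and in RNA of whole embryos fewer cells of a type and less RNA per cell cannot be told apart.

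Each value below is the log2 signal of the gene's probe minus that array's 75th percentile, so that 0 marks the 75th percentile and a negative value a dimmer probe. Changes are differences of group means on this log2 scale, with the standard error (SE) of limma's fit over all 29168 probes tested, and a gene was called changed where p, adjusted by Benjamini-Hochberg over those probes, was under 0.05. A value says nothing of one gene's level against another's, because each probe has its own brightness. Of the 80 probes, 49 were named as specific on the array, and 31 carried the array's xhyb mark, read here as probes that can also catch related transcripts. That was 38.8% of these genes, against 46.2% of all probes tested, and it matters in families of close copies such as hes and hox. That percentile ranged between 261 and 537 intensity units in S1, between 481 and 675 in S2 and between 499.5 and 985 in control. Mean log2 brightness was 6.47 ± 0.328 on S1 arrays, 6.84 ± 0.249 on S2 arrays and 7.24 ± 0.373 on control arrays (SD, n = 4 each). In a two-sided exact permutation test of brightness, S1 against control gave p = 0.0286 (0.0858 adjusted over 3 tests). By the same permutation test S2 against control gave p = 0.143 and S2 against S1 gave p = 0.114 (0.143 adjusted for each). For this permutation test 0.0286 is the smallest p that 4 arrays per group can give. The brightest S1 array (6.76) was dimmer than the dimmest control array (6.80). With brightness as a covariate in the fit, hoxa13 was called in S2 and tbx22 was not (adjusted p = 0.0974, limma).

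In S2 embryos 2 of the 80 genes fell, hoxa13 and tbx22, and 0 rose. In S1 embryos no gene changed at the threshold by limma, and 9 had an unadjusted p under 0.05. Among all probes tested, 5.06% changed in S2 against control (2.43% higher and 2.63% lower) and 2.1% in S1 against control (1.4% higher and 0.703% lower). The 2 of 80 genes are 2.5%. Both shares depended on single arrays: without S2-1, 1.65% of all probes and 1 of the 80 genes were called in S2, without S2-2 it was 1.78% of all probes and 1 gene, and in S1 the share of all probes was 0.95% without S1-3. At an unadjusted p under 0.05, 11.2% of these genes differed in S1, against 17.2% of all probes, and 13.8% in S2, against 21.4% of all probes. Comparing S2 with S1 directly, no gene changed, and neither did any of the 29168 probes (0 called, 0%); 1 gene, klf17, was lower in S2 at an unadjusted p under 0.05 (1.25%), against 7.34% of all probes in either direction and 4.29% lower.

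The estimated changes ranged between -0.52 (hoxa13) and 0.59 (hes5.4) in S1, leaving out tbx5, which was well above background on 0 S1 arrays, and between -0.74 (hoxa13) and 0.80 (hes5.4) in S2. The median change was -0.07 in S1 and -0.12 in S2, beside -0.02 and -0.04 over all probes in the same comparisons. Without control array C-3 the medians of the 80 genes were -0.01 in S1 and -0.06 in S2, with 42 and 46 estimates below 0, and without S1-4 the S1 median was -0.12. The interval that holds the change with 95% confidence reached a median of 0.33 to either side. It lay within 1 log2 unit of no change for 75 of the 80 genes in S1 and for 75 in S2. The 5 exceptions were hes3, hes5.4, hoxa11, sox17b.2 and tbx5 in S1, and dlx4, hes5.4, hoxa11, hoxa13 and klf17 in S2. A narrower limit of 0.5 was met by 38 genes in S1 and 33 in S2, and for the rest a change of that size was not excluded. Estimates below 0 were given by 54 genes (67.5%) in S1 and 51 (63.8%) in S2, against 52.5% and 56.4% of all probes. After a normexp background correction of the scanner's median signals, 14 and 17 were below 0 with backgrounds as measured. The median of all probes was then 0.26 in S1 and 0.15 in S2, and that of the 80 genes 0.37 and 0.13. With outlying backgrounds replaced 18 and 32 were below 0, with medians of 0.16 and 0.08 over all probes and 0.16 and 0.05 over the 80 genes. A change of sign under normexp is therefore not by itself a change against the other probes. In S1, however, the median of the 80 genes lay below that of all probes as reported. It lay above that of all probes under normexp with backgrounds as measured.

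**Figure D1:**
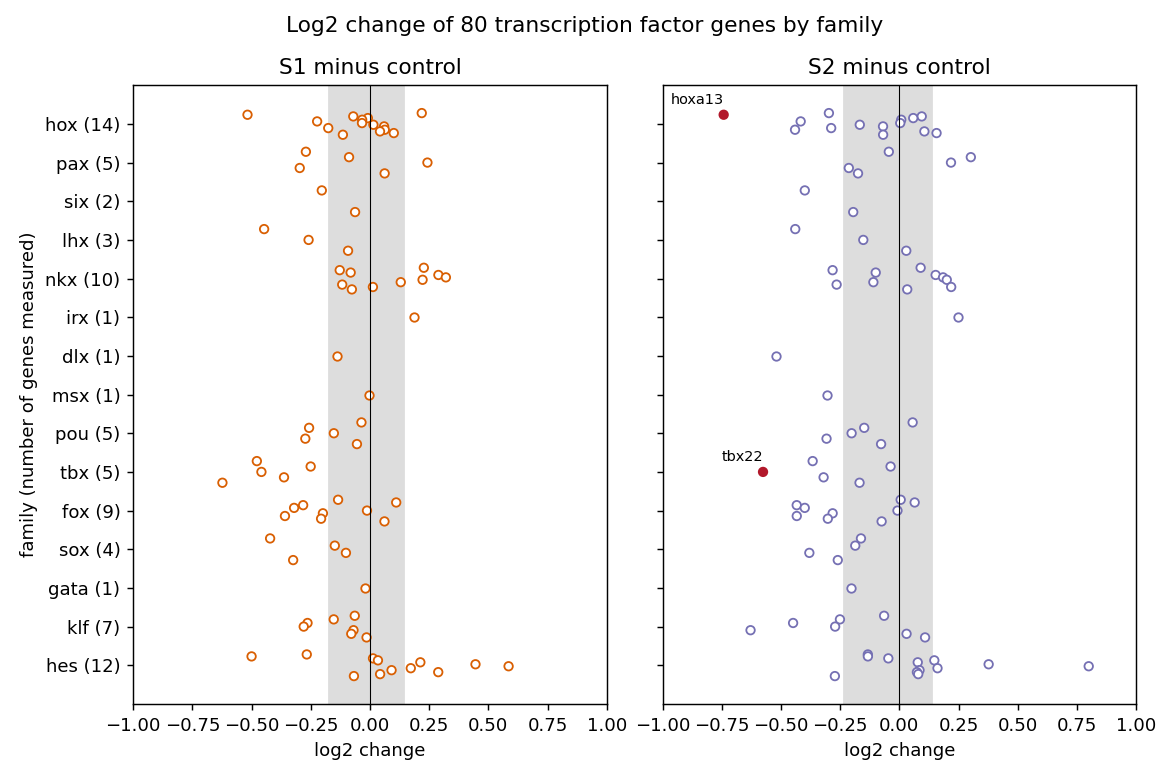
Log2 change of each of the 80 genes in S1 (left) and S2 (right) against control, by family on the vertical axis; each circle is 1 gene, filled where the adjusted p was under 0.05, and the grey band spans the lower to the upper quartile of all 29168 probes. The filled circles are hoxa13 and tbx22 in S2, at -0.74 and -0.58, and most other genes lie in or near the grey band.

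The hox family held the gene with the lowest estimate in S2. Hoxa13 is the last gene of the hoxa cluster and directs the hindgut, the cloaca and the digits. Its signal was -3.27, -2.91, -3.40 and -3.12 on the S1 arrays, -3.34, -3.52, -3.51 and -3.24 on the S2 arrays, and -2.84, -2.46, -2.56 and -2.78 on the control arrays. Every S2 array and every S1 array lay below every control array. In S2 it fell by 0.74 ± 0.13 (SE; adjusted p = 0.00967, limma), to 0.598 of the control signal. In S1 the change was -0.52 ± 0.13, with an adjusted p of 0.0655, and the direct difference between S2 and S1 was -0.22 ± 0.13 (adjusted p = 0.724, limma; interval -0.51 to 0.06). It was also the only one of the 80 genes called by the F-test over the 3 groups (adjusted p = 0.0226, limma), a test that called 3.01% of all probes. The F-test call was lost without S2-1, S2-2, S2-3, C-2, C-3 or C-4, with the slide, brightness or replicate number in the fit, and under both normexp corrections.

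The arrays were spread over 3 slides that each held all 3 groups, and hoxa13 in S2 was lower on each, by -0.59, -1.05 and -0.57 against the control arrays of the same slide. With the slide as a block it fell by 0.71 in S2 (adjusted p = 0.0248, limma). In S2 against control it remained called when any 1 of the 12 arrays was left out. Under normexp background correction the S2 change was 0.08 (adjusted p = 1) with backgrounds as measured. It was -0.24 (adjusted p = 0.457) with outlying backgrounds replaced, and hoxa13 was called under neither correction. The median change of all probes in S2 was 0.15 with backgrounds as measured and 0.08 with outlying backgrounds replaced. In S1 the hoxa13 change was 0.40 with backgrounds as measured, above the median of 0.26 over all probes. Both corrections also used median signals and an added offset, and which of these steps removed the call was not tested. The hoxa13 probe carries the xhyb mark. Of the other group 13 genes, hoxc13 had its own specific probe at -0.18 ± 0.15 in S1 and -0.29 ± 0.15 in S2 (adjusted p = 0.613 and 0.292, limma), and hoxd13 was well above background only on the control arrays C-2 and C-3.

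The remaining 13 hox genes did not pass the test in either mixture. Hoxa11, which patterns the forearm and the kidney, was among the most variable genes, at -6.10, -4.33, -5.26 and -4.74 on S1 arrays, -5.64, -5.77, -4.71 and -6.37 on S2 arrays, and -5.96, -4.97, -5.40 and -4.97 on control arrays. These groups overlapped throughout, and the changes were 0.22 ± 0.41 in S1 and -0.30 ± 0.41 in S2. Hoxa6, a trunk gene of the same cluster, gave -0.07 and 0.09. In the hoxb cluster, hoxb1, which specifies a segment of the hindbrain, gave -0.01 in S1 and 0.06 in S2, hoxb6 gave -0.03 and 0.01, and hoxb8 gave -0.03 and 0.00. Hoxb7 had wider estimates, at -0.22 ± 0.21 in S1 and -0.42 ± 0.21 in S2 (adjusted p = 0.655 and 0.273, limma).

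In the hoxc cluster 6 genes were measured. The anterior gene hoxc4 changed by 0.04 in S1 and 0.11 in S2, and hoxc5 by 0.10 and 0.16. Hoxc3 gave 0.06 ± 0.25 in S1 and -0.44 ± 0.25 in S2. The posterior genes hoxc11 and hoxc12 gave 0.01 and 0.06 in S1 and -0.17 and -0.07 in S2. The only hoxd gene past the filter, hoxd3, gave -0.11 in S1 and -0.07 in S2. Grouped by position, the 5 genes of paralogue groups 9 to 13 had a median of 0.01 in S1 and -0.29 in S2. All 5 estimates were below 0 in S2, with hoxa13 alone called. Under normexp with backgrounds as measured 2 of the 5 were below 0 in S2, beside a median of 0.15 over all probes. With outlying backgrounds replaced 3 of the 5 were below 0, beside 0.08 over all probes. The 5 genes of groups 5 to 8 had medians of -0.03 and 0.01, and the 4 genes of groups 1 to 4 had medians of 0.02 and 0.00, in S1 and S2 in that order.

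**Figure D2:**
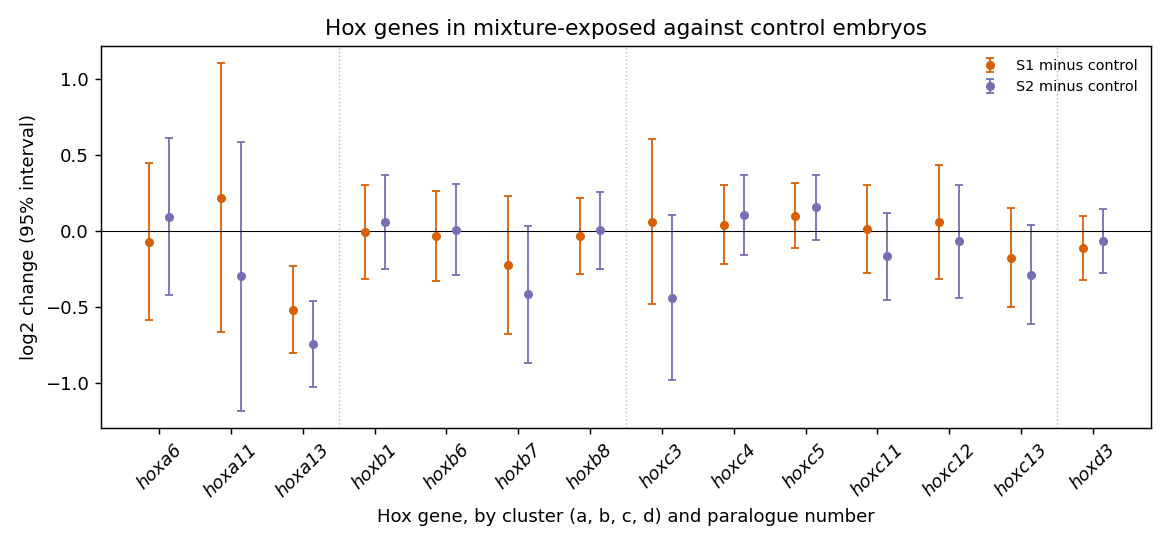
Log2 change of the 14 hox genes in S1 (orange) and S2 (purple) against control, with 95% intervals from limma, ordered by cluster (dotted lines part the a, b, c and d clusters) and paralogue number. Hoxa13 lies at -0.52 and -0.74 with intervals below 0, hoxa11 has the widest intervals, and the intervals of the remaining genes include 0.

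The T-box family held the other gene that fell. Tbx22 is needed for the palate and is mutated in human cleft palate. Its signal was -3.99, -4.18, -4.07 and -4.04 on S1 arrays, -4.13, -4.15, -3.96 and -4.50 on S2 arrays, and -3.61, -3.70, -3.28 and -3.86 on control arrays. All arrays of both mixtures lay below all control arrays. In S2 it fell by 0.58 ± 0.14 (SE; adjusted p = 0.0366, limma), to 0.671 of control, and in S1 the change was -0.46 ± 0.14 (adjusted p = 0.115). The direct difference between S2 and S1 was -0.12 ± 0.14 (interval -0.42 to 0.19). The probe is a specific one.

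This call was less firm than that of hoxa13. It held in 4 of the 12 fits that each left out 1 array, with changes between -0.66 and -0.47 and adjusted p between 0.0417 and 0.0933. On the slides the S2 change was -0.53, -0.27 and -0.93, and with the slide as a block it was -0.60 with an adjusted p of 0.0581. It also missed the threshold after quantile normalization (adjusted p = 0.109, limma) and under normexp. There the change was 0.08 with backgrounds as measured and -0.07 with outlying backgrounds replaced, beside medians of 0.15 and 0.08 over all probes. In S1 the tbx22 change was 0.49 with backgrounds as measured, above the median of 0.26 over all probes.

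The other 4 T-box genes did not pass. Tbx18, used in the outer layer of the heart, the sinus node and the somites, was -3.01, -3.27, -3.49 and -2.82 on S1 arrays, -3.08, -3.11, -3.12 and -2.84 on S2 arrays, and -2.88, -2.57, -2.55 and -2.69 on control arrays. Only the highest array of each mixture overlapped the lowest control array. Its changes were -0.48 ± 0.14 in S1 (adjusted p = 0.113) and -0.37 ± 0.14 in S2 (adjusted p = 0.167, limma). Tbx4, which marks the hindlimb and the lung bud and is shown by array after its values were seen, was -3.76, -3.50, -3.67 and -3.94 on S1 arrays, -3.69, -4.07, -3.52 and -3.43 on S2 arrays, and -3.49, -3.41, -3.45 and -3.08 on control arrays. The S1 arrays lay just below the control arrays, while 1 S2 array lay among them. The changes of tbx4 were -0.36 ± 0.15 and -0.32 ± 0.15 (adjusted p = 0.252 and 0.256, limma).

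Tbx21, the T-bet factor of lymphocytes, was -3.36, -3.27, -3.31 and -3.25 on S1 arrays, -2.95, -2.94, -3.16 and -3.29 on S2 arrays, and -3.19, -2.96, -3.05 and -2.99 on control arrays. The S1 arrays were all below control and the S2 arrays were not. Its changes were -0.25 ± 0.10 in S1 (adjusted p = 0.228) and -0.04 ± 0.10 in S2, and their difference had an adjusted p over the threshold in the direct comparison. Tbx5, the factor of the heart and the forelimb, was near the detection limit, well above background on 0 S1, 1 S2 and 3 control arrays. The measured means were -6.30 in S1 and -5.68 in control, a control signal 1.54-fold that of S1 (adjusted p = 0.416, limma). This is the ratio of the measured means and not a lower limit. All 5 T-box estimates were below 0 in both mixtures, tbx5 among them, which passed the filter mainly through control arrays. In S2 4 of 5 were below 0 after median scaling and 3 of 5 after quantile normalization. As reported, the T-box medians were -0.46 in S1 and -0.32 in S2, beside -0.02 and -0.04 over all probes. Under normexp with backgrounds as measured none of 5 was below 0 in either mixture. The T-box medians were then 0.49 in S1 and 0.15 in S2, beside 0.26 and 0.15 over all probes. With outlying backgrounds replaced 0 were below 0 in S1 and 2 in S2. The T-box medians were then 0.21 and 0.10, beside 0.16 and 0.08 over all probes. Under normexp the T-box medians were thus not below those of all probes.

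**Figure D3:**
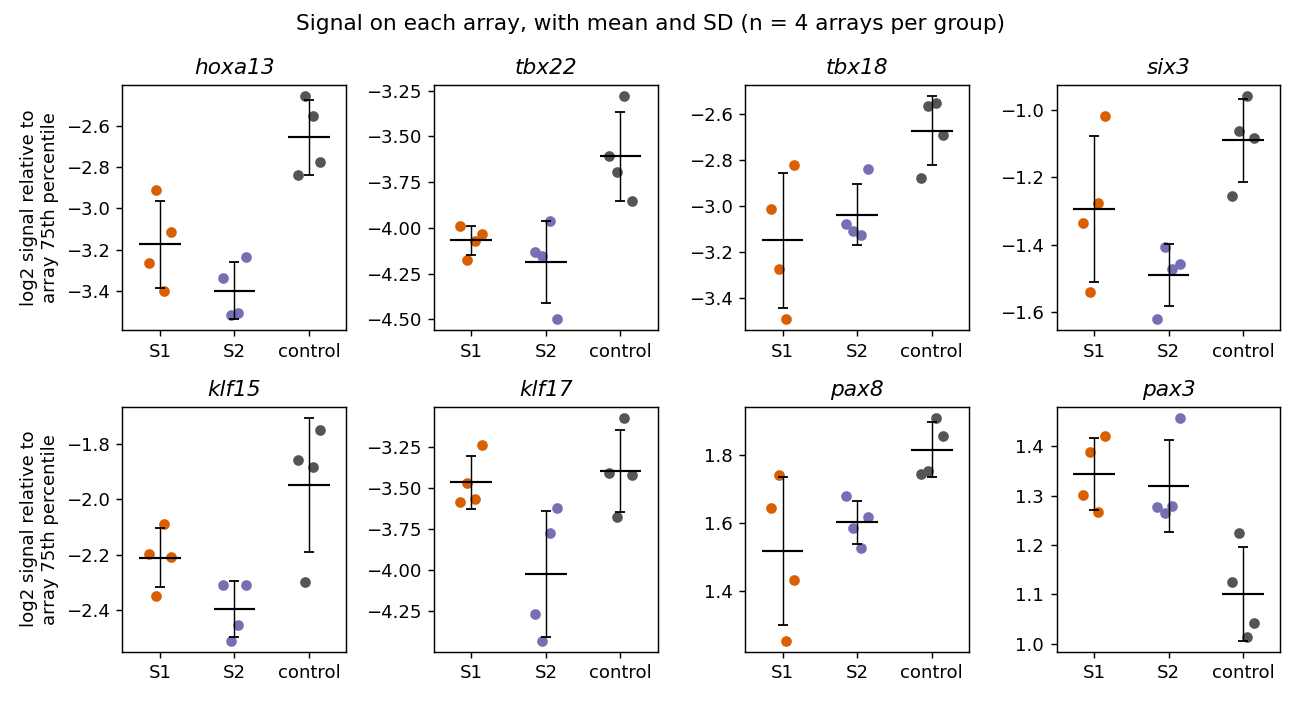
Signal of 8 genes on each array (points), as log2 relative to the array's 75th percentile, with the group mean (bar) and SD (whisker), for S1, S2 and control, n = 4 arrays each. Hoxa13 and tbx22 are below all control arrays on every S1 and S2 array, klf17 overlaps control on 1 S2 array, and pax3 is above all control arrays in both mixtures.

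Genes of the eye, forebrain and sensory organs were measured across several families, and none changed at the threshold. Six3, which maintains the forebrain and the eye field, was -1.34, -1.54, -1.28 and -1.02 on S1 arrays, -1.62, -1.41, -1.47 and -1.46 on S2 arrays, and -1.26, -1.06, -0.96 and -1.08 on control arrays. The S2 arrays all lay below the control arrays and the S1 arrays overlapped them. Its changes were -0.20 ± 0.12 in S1 (adjusted p = 0.415) and -0.40 ± 0.12 in S2 (adjusted p = 0.0736, limma). Six3 passed in S2 in 1 of 12 fits that each left out 1 array, without S1-4 (adjusted p = 0.0421, limma). In these fits its adjusted p reached 0.194. Six4, a gene of sensory placodes and muscle, gave -0.06 and -0.19. Lhx2, which is needed for the eye and the forebrain, was -2.67, -2.83, -2.57 and -1.84 on S1 arrays, -2.24, -2.49, -2.75 and -2.41 on S2 arrays, and -2.35, -1.95, -1.59 and -2.23 on control arrays. The groups overlapped, and the changes were -0.45 ± 0.22 and -0.44 ± 0.22 (adjusted p = 0.334 and 0.279, limma).

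Lhx9, a gene of the gonad and the brain, stayed at -0.09 and 0.03, and lhx6, a gene of forebrain interneurons, at -0.26 ± 0.27 and -0.15 ± 0.27. Pou4f2, which retinal ganglion cells require, was -2.86, -2.73, -3.28 and -3.24 on S1 arrays, -3.06, -3.11, -3.01 and -3.06 on S2 arrays, and -2.83, -2.62, -2.77 and -2.78 on control arrays. Its S2 arrays were all below control, at -0.31 ± 0.13 (adjusted p = 0.182), and its S1 change was -0.27 ± 0.13 (adjusted p = 0.293, limma). The related sensory neuron genes pou4f1 and pou4f3, the second of them a gene of inner ear hair cells, gave -0.15 and -0.05 in S1 and -0.20 and -0.08 in S2. The octamer-binding genes pou2f1 and pou2f2 gave -0.04 and -0.26 in S1 and 0.06 and -0.15 in S2.

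Of the 8 measured genes on a list for eye and lens (foxe3, lhx2, lhx9, pou4f1, pou4f2, six3, sox2 and tbx5), 0 passed in either mixture. Their median, with tbx5 counted although no S1 array measured it, was -0.24 in S1 and -0.25 in S2, with 8 and 7 estimates below 0. Under normexp with backgrounds as measured 2 and 3 were below 0, beside medians of 0.26 in S1 and 0.15 in S2 over all probes. With outlying backgrounds replaced, beside 0.16 and 0.08 over all probes, 5 in S1 and 5 in S2 of these 8 genes were below 0. Beside them, the summed linear signal of 5 lens structural genes ranged between 0.305 and 0.642 on S1 arrays, between 0.195 and 1.02 on S2 arrays and between 1.00 and 1.56 on control arrays, in units of the array's 75th percentile. Of these lens genes only cryga.1 passed, in S2. Of 5 photoreceptor genes rbp3 passed in both mixtures and rom1 in S2, all lower. The part of lens and retina cells in the eye factors' estimates was not tested.

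Of the 5 pax genes none passed. Pax3, which marks neural crest and muscle precursors, was 1.30, 1.39, 1.27 and 1.42 on S1 arrays, 1.28, 1.26, 1.28 and 1.46 on S2 arrays, and 1.13, 1.22, 1.01 and 1.04 on control arrays. All arrays of both mixtures lay above all control arrays. The changes were 0.24 ± 0.09 in S1 and 0.22 ± 0.09 in S2, and neither passed (adjusted p = 0.18 and 0.176, limma). Pax8, a gene of the kidney and the thyroid, was 1.64, 1.74, 1.26 and 1.43 on S1 arrays, 1.68, 1.59, 1.53 and 1.62 on S2 arrays, and 1.74, 1.75, 1.91 and 1.86 on control arrays. No mixture array exceeded a control array, but the nearest S1 and control arrays both stood at 1.74. Its changes were -0.30 ± 0.11 and -0.21 ± 0.11 (adjusted p = 0.192 and 0.292, limma).

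Pax2, a gene of the kidney and of the boundary between midbrain and hindbrain, gave -0.09 ± 0.19 in S1 and 0.30 ± 0.19 in S2 (adjusted p = 0.877 and 0.387, limma). Pax1 and pax9, which direct vertebral cartilage and the pharyngeal pouches, gave -0.27 and 0.06 in S1 and -0.04 and -0.17 in S2. Irx1, a gene of the pronephros and the neural plate, gave 0.19 ± 0.17 and 0.25 ± 0.17. Of 6 measured structural genes of the pronephros, the embryonic kidney, amn rose in both mixtures and lrp2 in S2. Of the rest, slc12a1, slc12a3, slc22a6 and slc4a4 did not pass, at 0.05, 0.23, 0.70 and -0.25 in S1. In S2 they were at -0.08, 0.18, 0.65 and 0.27. The kidney factors pax2, pax8, irx1 and klf15 did not pass, with a median of -0.18 in S1 and 0.02 in S2.

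The 7 klf genes were all measured by specific probes, and none changed at the threshold. Klf15, a regulator of amino acid and glucose metabolism, was -2.20, -2.35, -2.09 and -2.21 on S1 arrays, -2.31, -2.51, -2.45 and -2.31 on S2 arrays, and -1.86, -2.30, -1.88 and -1.75 on control arrays. The S2 arrays were below the control arrays, of which C-2 at -2.30 stood closest. Its S2 change was -0.45 ± 0.12 (adjusted p = 0.0577, limma). Of 12 fits that each left out 1 array, klf15 passed in S2 in 1, without C-2 (change -0.57, adjusted p = 0.0156, limma). In these fits its adjusted p reached 0.157. Its S1 change was -0.26 ± 0.12 (adjusted p = 0.298). Klf15.2, its copy, gave -0.28 ± 0.27 and -0.27 ± 0.27.

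Klf17 serves the hatching gland and early blood in frogs and fish. It was -3.59, -3.47, -3.57 and -3.24 on S1 arrays, -4.27, -4.43, -3.78 and -3.62 on S2 arrays, and -3.41, -3.68, -3.07 and -3.42 on control arrays. All S2 arrays lay below all S1 arrays, but 1 of them overlapped the control arrays. Its S2 change was -0.63 ± 0.19 (adjusted p = 0.0757), its S1 change was -0.07 ± 0.19 (adjusted p = 0.904), and the direct difference between S2 and S1 was -0.56 ± 0.19 (adjusted p = 0.623, limma; interval -0.97 to -0.15). Klf17 passed in S2 in 1 of the 12 fits that each left out 1 array, without S2-4 (adjusted p = 0.0375, limma). In these fits its adjusted p reached 0.199. The other klf genes stayed closer to control. Klf12 gave -0.15 in S1 and -0.25 in S2, klf10 -0.06 in both, klf3 -0.08 and 0.03, and klf5, a factor of gut and skin epithelium, -0.01 and 0.11.

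Of the 4 sox genes none passed. Sox21, which promotes the exit of neural progenitors into neurons, was -2.78, -2.62, -2.68 and -2.79 on S1 arrays, -2.97, -3.07, -2.96 and -2.99 on S2 arrays, and -2.56, -3.04, -2.21 and -2.67 on control arrays. The S2 arrays all lay below the S1 arrays and spread little, while control array C-2 lay among them. Its changes were -0.10 ± 0.14 in S1 and -0.38 ± 0.14 in S2 (adjusted p = 0.795 and 0.153, limma). Of 12 fits that each left out 1 array, sox21 passed in S2 in 1, without C-2 (change -0.52, adjusted p = 0.0359, limma). In these fits its adjusted p reached 0.334. Sox21 and klf17 were the only 2 of the 80 genes whose S2 and S1 arrays did not overlap (2.5%, against 4.67% of all probes), and both were lower in S2, as were 2.66% of all probes. Sox2, the factor of neural stem cells, was 2.75, 2.45, 2.97 and 2.93 on S1 arrays, 2.75, 2.76, 2.84 and 2.59 on S2 arrays, and 2.88, 2.84, 2.97 and 3.00 on control arrays. Its changes were -0.15 ± 0.12 and -0.19 ± 0.12, and neither passed. Sox8, a neural crest gene, gave -0.32 ± 0.19 and -0.26 ± 0.19, and the endodermal gene sox17b.2 gave -0.42 ± 0.33 and -0.16 ± 0.33.

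The 9 fox genes ranged between -0.36 and 0.11 in S1 and between -0.43 and 0.06 in S2, and none passed. Foxo4, a target of insulin signalling, was -3.96, -4.17, -4.15 and -4.06 on S1 arrays, -4.05, -4.40, -4.01 and -4.17 on S2 arrays, and -3.996, -3.99, -3.38 and -3.54 on control arrays. The S2 arrays lay just below the control arrays, of which C-1 and C-2 were close to both mixtures. The changes were -0.36 ± 0.15 in S1 and -0.43 ± 0.15 in S2 (adjusted p = 0.246 and 0.121, limma). Foxe1, a thyroid and palate gene, gave -0.28 ± 0.22 and -0.43 ± 0.22, foxm1, which drives entry into mitosis, -0.20 ± 0.15 and -0.28 ± 0.15, and foxe3, a gene of the lens epithelium, -0.32 ± 0.26 and -0.40 ± 0.26. Foxf1, a gene of gut and lung mesoderm, had the smallest spread within groups of all 80 genes, a pooled SD of 0.0808. It gave -0.01 in both mixtures, with intervals of -0.20 to 0.17 in S1 and -0.19 to 0.18 in S2. Foxd2 gave -0.13 and 0.01, foxr1 0.06 and -0.07, foxd4l1.2, an early neural gene, 0.11 and 0.06, and foxo6, well above background on 5 arrays, -0.21 ± 0.27 and -0.30 ± 0.27.

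The hes genes were measured by 12 probes, 8 of them in the hes5 group. In the RefSeq gene order hes5.2 and hes5.1 are direct neighbours, hes5.3 and hes5.4 lie side by side, and hes5.7, hes5.8, hes5.9 and hes5.10 form a run of 4 genes. Of the 12 probes, 7 carried the xhyb mark, 6 of them in the hes5 group, so close copies may share signal. Hes5.3 was -1.27, -1.01, -1.22 and -1.47 on S1 arrays, -1.16, -1.10, -1.24 and -1.74 on S2 arrays, and -1.96, -1.45, -1.81 and -1.54 on control arrays. The groups overlapped through S1-4, S2-4 and the highest control array. Its changes were 0.45 ± 0.16 in S1 and 0.38 ± 0.16 in S2, and neither passed (adjusted p = 0.188 and 0.211, limma).

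Apart from hes5.4, described next, the other hes5 genes had smaller estimated changes than hes5.3. Hes5.2 gave 0.21 ± 0.11 in S1 and 0.08 ± 0.11 in S2, and its neighbour hes5.1 gave 0.01 and -0.05. In the run of 4, hes5.7 gave 0.17 ± 0.27 and 0.16 ± 0.27, hes5.8 0.09 and 0.09, hes5.9 0.29 ± 0.19 and 0.07 ± 0.19, and hes5.10 0.03 and 0.15. Hes6.1, which favours neuron formation, gave 0.04 and 0.08. Hes7.1, related to the somite clock gene of the mouse, gave -0.07 and -0.27, and hes2 and hes3 gave -0.27 and -0.50 in S1 and -0.13 and -0.13 in S2. Over the 12 genes 9 estimates were above 0 in S1 and 8 in S2, with medians of 0.07 and 0.08, and with brightness as a covariate 6 and 8 were above 0. Under normexp with backgrounds as measured 1 and 2 were below 0, with medians of 0.31 and 0.16, beside 0.26 and 0.15 over all probes. With outlying backgrounds replaced 1 and 1 were below 0, with medians of 0.25 and 0.15, beside 0.16 and 0.08 over all probes. Of the 9 measured genes of the Notch pathway that acts on hes genes, including the receptor gene notch2 and the ligand genes dll4 and jag1, 0 passed in either mixture.

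**Figure D4:**
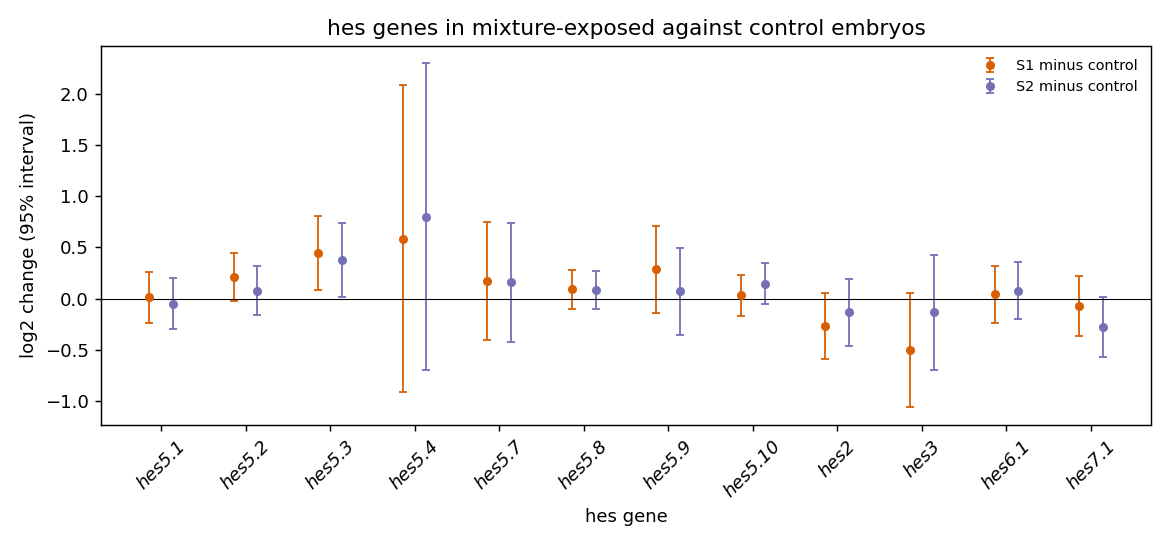
Log2 change of the 12 hes genes in S1 (orange) and S2 (purple) against control, with 95% intervals from limma. Hes5.3 is at 0.45 and 0.38, hes5.4 has by far the widest intervals, and no gene passed after adjustment over all probes.

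Hes5.4 was the most variable of the 80 genes, with a pooled SD within groups of 1.11. Its signal was -2.63, -0.93, -0.24 and -2.97 on S1 arrays, -1.84, -2.38, -0.84 and -0.85 on S2 arrays, and -2.48, -0.56, -2.90 and -3.16 on control arrays. The 4 arrays of slide 2, which came from all 3 groups, and S2-4 of slide 3 were high, and the other 7 arrays lay between -3.16 and -1.84. Its changes of 0.59 ± 0.69 and 0.80 ± 0.69 were within that spread. In the fit with the slide as a term, slide differences passed for 6 of the 80 genes, or 7.5% (adjusted p under 0.05, limma), against 3.46% of all probes. These were dlx4, foxd4l1.2, foxe3, hes5.4, sox17b.2 and tbx5, a choice of test made after the data were seen.

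These 6 genes did not all share a pattern, though dlx4, foxd4l1.2, foxe3 and tbx5 were each higher on slide 3 than on slide 1, by 0.80 to 1.08. Hes5.4 was 1.86 higher on slide 2 than on slide 1, and 0.07 higher on slide 3. Foxd4l1.2 was 0.84 and 1.01 higher on slides 2 and 3 than on slide 1. Dlx4, foxe3 and tbx5 were 0.90, 0.80 and 1.08 higher on slide 3 than on slide 1, and sox17b.2 was 0.69 higher on slide 2. With the slide as a block, sox17b.2 passed in S1 against control, being lower, as no other of the 80 genes did there. Hoxa13 alone passed in S2. Of all probes, 1.9% passed in that fit in S1 and 3.6% in S2. Without the block the S1 change of sox17b.2 was -0.42 and did not pass. The labels and headers do not say whether a slide stands for a day of hybridisation or of extraction.

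**Figure D5:**
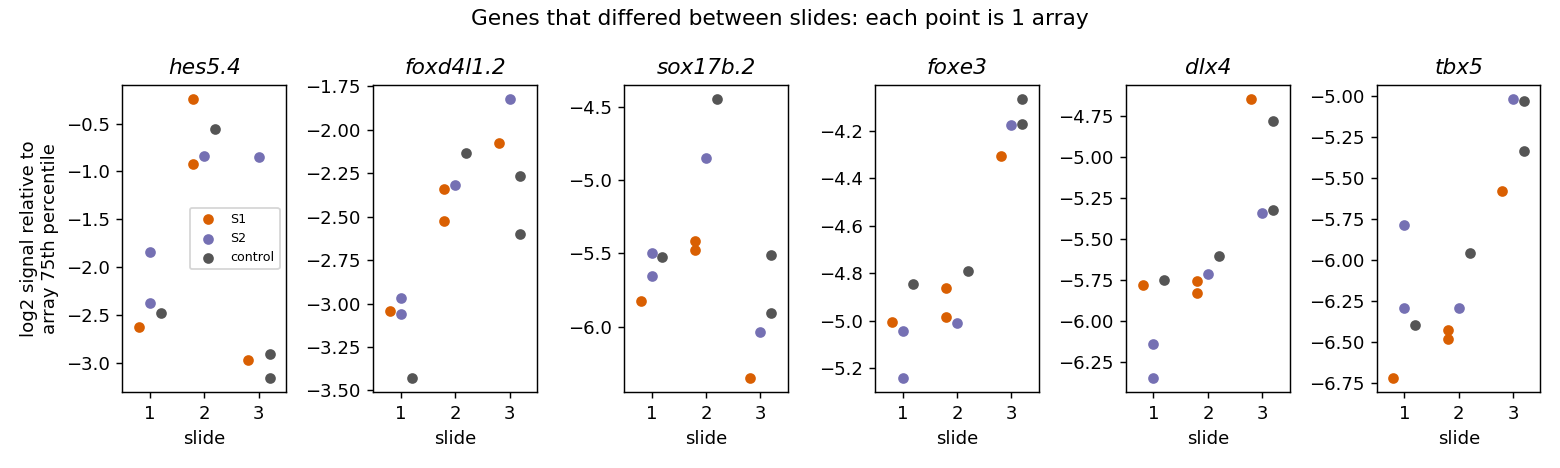
Signal of the 6 genes that differed between slides, as log2 relative to the array's 75th percentile, by slide (1, 2 or 3); each point is 1 array, coloured as S1, S2 or control. Hes5.4 is high on all 4 arrays of slide 2, and foxe3 and tbx5 are highest on slide 3 in S1, S2 and control alike.

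The 10 nkx genes ranged between -0.13 and 0.32 in S1 and between -0.28 and 0.22 in S2, with 0 past the test and medians of 0.07 and 0.06. Nkx2-3, a gene of gut mesoderm and spleen, was -0.43, -0.41, -0.34 and -0.73 on S1 arrays, -0.49, -0.47, -0.34 and -1.15 on S2 arrays, and -0.59, -0.92, -0.68 and -1.01 on control arrays. Its S1 and S2 arrays overlapped control through replicate 4, and the changes were 0.32 ± 0.17 and 0.18 ± 0.17 (adjusted p = 0.379 and 0.582, limma). Nkx1-2, a tail bud gene, gave -0.13 ± 0.15 and -0.28 ± 0.15. Nkx2-1, of the thyroid and lung, gave -0.08 and -0.10, nkx2-2, of the ventral neural tube and pancreas, 0.29 ± 0.22 and 0.15 ± 0.22, and nkx2-6, of the pharynx and heart, 0.22 ± 0.21 and 0.20 ± 0.21. The cartilage gene nkx3-2 gave 0.13 and -0.11, nkx3-3 gave -0.12 and -0.26, nkx6-2 0.01 and 0.22, the stomach gene nkx6-3 -0.08 and 0.03, and nkx1-1 0.23 and 0.09.

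Single genes stood for 3 further families. Gata2, needed by blood progenitors, gave -0.02 ± 0.19 in S1 and -0.20 ± 0.19 in S2. Msx2, a gene of skull and limb bud, gave 0.00 ± 0.24 and -0.30 ± 0.24. Dlx4 gave -0.14 ± 0.31 and -0.52 ± 0.31, and its probe was well above background on 3 S1, 3 S2 and 4 control arrays. None passed in either comparison.

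S1 and control arrays did not overlap for 6 genes (7.5%, against 10.6% of all probes, 5.61% higher and 4.95% lower), and of these hoxa13, pax8, tbx4, tbx21 and tbx22 were lower and pax3 higher. S2 and control arrays did not overlap for 9 genes (11.2%, against 15.9% of all probes, 7.55% higher and 8.3% lower), with foxo4, hoxa13, klf15, pax8, pou4f2, six3, sox2 and tbx22 lower and pax3 higher. Both comparisons use the same 4 control arrays, so the genes they have in common are not independent results. The 2 called genes each varied within groups most like a few others. Over the 12 arrays with group means removed, hoxa13 correlated with hoxb6 at r = 0.713, with hoxb7 at 0.68 and with pax3 at 0.625. Tbx22 correlated with hoxc13 at r = 0.764, with hes5.9 at 0.756 and with nkx2-3 at 0.721. These are the 3 highest values of each gene, the arrays share slides and scaling, and they are given as a description.

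The other 5 genes with a probe did not pass the filter. Lhx4, of motor neurons and the pituitary, and hoxd13, of the digits, were well above background only on control arrays C-2 and C-3, and nkx2-4 on S1-1, C-2 and C-3. C-3 and C-2 were also the arrays with the largest share of all probes well above background, at 90.9% and 88.9%, against 82.4% to 85.7% on the other 10 arrays. Hes7.2 and foxq1 were well above background on no array. Among the 80 genes, 74 were well above background on all 12 arrays (92.5%, against 89.8% of all probes tested).

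Lists of signalling pathways and partner proteins around these families were short, and their counts stand beside 2.1% of all probes called in S1 and 5.06% in S2. None of the 6 measured cofactors, such as eya4, zfpm1, zfpm2 and ldb2, passed in either mixture, and their median was -0.21 in S1 and -0.04 in S2. The 5 hedgehog, 8 wnt, 8 bmp and 3 fgf pathway genes had 0 calls in either mixture. Of 7 genes of the retinoic acid pathway, which sets the expression of hox genes along the axis, 1 fell in S1. This was rarb, a receptor and a direct target of retinoic acid, at -2.50, -2.55, -2.65 and -2.33 on S1 arrays, -2.29, -2.14, -2.29 and -2.31 on S2 arrays, and -1.95, -2.13, -1.99 and -2.18 on control arrays. All S1 arrays were below all control arrays, and rarb fell by 0.45 ± 0.10 in S1 (adjusted p = 0.0375), with -0.20 in S2 (adjusted p = 0.259, limma). Of 29 other patterning factors 1 passed. Nr2e1, a nuclear receptor of neural stem cells and retina, fell by 0.40 ± 0.09 in S2 (adjusted p = 0.0321), with -0.28 in S1 (adjusted p = 0.14, limma).

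Tissue marker genes outside the families are given beside the factors of the same tissue, on short lists that do not allow a comparison of how often they changed. Of 7 liver genes 2 rose in S1 (plg and kng1) and 3 in S2 (plg, kng1 and apob). In neither mixture did alb, fga, fgg or serpina1 pass, at 0.06, -0.26, -0.31 and 0.11 in S1. In S2 these genes were at -0.25, -0.19, 0.03 and 0.26. The single measured epidermal gene, krt78.1, fell by 1.84 in S1 and by 2.46 in S2. Of 4 cartilage genes, cytl1 fell by 1.28 in S1 and by 1.04 in S2, and hapln1, matn4 and snorc did not pass, at -0.34, -0.38 and 0.25 in S1 and -0.28, -0.26 and 0.11 in S2. Of 3 pancreas genes, ctrb1 fell by 1.01 in S2 (adjusted p = 0.0219, limma). Amy2a and cpa1 did not pass, at 0.18 and -0.97 in S1 and 0.19 and -1.3 in S2. The single myeloid gene, mpo, rose by 0.58 in S2 (adjusted p = 0.0498, limma) and gave 0.56 in S1 (adjusted p = 0.0811). The factors listed for gut, liver, lung and pancreas had 1 call among 9, hoxa13 in S2, and those for neural crest, placode and cartilage had 0 among 9. The 2 neuron genes and 2 skeletal muscle genes measured gave 0 calls, as did the 9 factors listed for neural progenitors and neurons and the 5 for heart, blood and vessel. The part of these tissues' cell numbers in the factors' estimates was not tested.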

How the data were processed

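Total RNA of 12 whole-embryo samples was labelled with Cy3 and hybridised to 1-colour Agilent arrays, per the labels. Per the file headers, scans were read with Feature Extraction 11.0.1.1 on a design that names the build JGI 4.1, and the deposited processed signal is a linear intensity. The authors also deposited a table in log2 units, used as an alternative. Its direction and scale followed the arrays' own log2 signal, with correlations between 0.9987 and 1, every column had the median 6.80. No source used here names the tool that made it.

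For the results, each intensity was put on the log2 scale and the 75th percentile of that array's spots, controls left out, was subtracted, with 295 spots marked as outliers left out and spots of a probe averaged. The 29168 of 32899 probes that the scanner called well above background on 4 or more arrays were fitted in 1 model with limma 3.58.1 in R 4.3.3, with no covariate and Benjamini-Hochberg adjustment within each comparison. The number of arrays limits the precision. Symbols came from RefSeq accessions in a table of another assembly, so no coordinates are given, and no sequences are shown. The genes, lists and tests were chosen with earlier results of these data known. The rule for named genes took each called gene, the 5 higher and 5 lower with the smallest p per comparison, the smallest F-test p per family, the 3 most variable, and a list of well-known regulators; the other genes are given by their changes, except tbx4, shown by array after its values were seen. The scripts were tested on simulated data. The files hold no mean spot signal, so normexp background correction used median signals, with an offset of 50. Correlations of same-numbered arrays ran between -0.0293 and 0.362. Differently numbered arrays were not compared, so whether replicate numbers pair the samples was not tested. The arrays of replicate 1 all lay on slide 1 and those of replicate 4 on slide 3, so replicate number and slide are partly tied. The plots used matplotlib 3.10.9 (Python 3.11.15).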

Additional observations from a re-analysis of the deposited data

Results flagged for a closer look

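Among the 87 groups of 4 arrays looked at (29 named genes in 3 groups), 6 had 1 array far from the other 3, by Dixon's test at the 95% level. Chance alone flags about 1 in 20 such groups.

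Dlx4 was -4.65 on S1-4, against -5.83 to -5.76 on the other S1 arrays. Gata2 was -1.36 on S1-4, against -1.95 to -1.88. Hes5.10 was 0.052 on S1-2, against -0.16 to -0.13. Pax3 was 1.46 on S2-4, against 1.26 to 1.28 on the other S2 arrays, and tbx18 was -2.84 on S2-4, against -3.13 to -3.08. Nkx1-2 was -3.17 on control array C-2, against -2.61 to -2.53. Of these arrays S1-4 was the dimmest of the 12, with a 75th percentile of 261.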

How the results depend on the processing

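Hoxa13 in S2 kept its direction and its call in 14 of 16 alternatives and in 12 of 12 sets that left out 1 array. Both exceptions were normexp corrections. These were planned on mean spot signals, which the files do not hold, and were added on median signals instead. With backgrounds as measured its S2 change was 0.0818 and that of tbx22 0.0792, both turned in sign. The median change of all probes in S2 was 0.15 in that setting, above both genes. In S1 the changes in that setting were 0.40 for hoxa13 and 0.49 for tbx22. Both lay above the S1 median of all probes, 0.26. The cause of the turn was not tested. Tbx22 kept its call in 7 of 17 alternatives. The tallies of both genes include the looser threshold of 0.1, which cannot lose a call made at the reported threshold. They also include the mean over probes of a gene, which leaves the signal of a gene with 1 probe unchanged. Neither of these settings could test the calls. The normexp corrections with mean spot signals were not run.

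The count in S2 against control, 2 as reported, was 0 under both normexp corrections (29 and 653 of all probes called). It was 1 after quantile normalization, median scaling, in the authors' table, with slide as a block, with brightness as a covariate (732 of all probes), with a trended prior, in a fit of the compared groups alone, among specific probes and without C-3, S1-4 and S2-4. In these settings between 2.51% and 6.61% of the probes tested were called. It was 7 with array weights (4026 of all probes, 13.8%) and 5 at an adjusted p under 0.1 (9.75% of all probes). With 1 array left out it was between 1 and 3 (1.65% to 5.74% of all probes). With the replicate number as a replicate block it was 3, adding klf15 (3.77% of all probes). Among probes above background on all 12 arrays it was also 3, of 74 genes (6.68% of those probes).

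In S1 against control, 0 as reported, the count was 1 with slide as a block (sox17b.2, beside 1.9% of all probes). At an adjusted p under 0.1 it was 1 (hoxa13, beside 4.74% of all probes), and with 1 array left out between 0 and 1. Over all probes, leaving out 1 array gave between 277 and 744 calls in S1 and between 482 and 1673 in S2. In S1 all probes called numbered 28 under normexp with backgrounds as measured, 104 with brightness as a covariate, 288 in the fit of 2 groups and 994 with a trended prior, against 612. The F-test count, 1 as reported, was 0 under both normexp corrections, with the slide, replicate or brightness terms, among specific probes and without the 3 arrays. It was 3 with array weights (8.36% of all probes), 2 at 0.1 (6.47% of all probes), and between 0 and 1 with 1 array left out. In S2 against S1 none of these genes was called under any alternative, and at most 2 of all probes were. Over the 29 named genes, 62 of 825 values in S1 and 34 of 825 in S2 changed sign. The median of all probes moved to 0.26 in S1 and 0.15 in S2 under normexp as measured.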
